A study of Mus musculus with 6 samples.

Results

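The 10 amino acid transporters described here are *Slc3a2*, *Slc7a5*, *Slc7a11*, *Slc7a1*, *Slc7a3*, *Slc1a4*, *Slc1a5*, *Slc38a1*, *Slc38a2* and *Slc6a9*. They are carriers of the plasma membrane together with the heavy chain that some of them need, and they were taken by symbol from the 54532 genes of the raw count table. Each of the 10 symbols was found and each passed the filter on low counts, which kept 19372 genes for testing. The RNA-seq libraries come from mouse hearts at embryonic day (E) 9.5, 3 of *Smyd1-KO* and 3 of WT embryos, each heart extracted on its own. *Smyd1-KO* embryos are homozygous for a null allele of *Smyd1*, a histone methyltransferase gene of striated muscle, and come from *Smyd1*+/- parents, so every cell of the heart carried it and not only cardiomyocytes. WT hearts carry no such allele, no agent was given to either group, and the libraries were made from poly A RNA.

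Cells import most amino acids through solute carriers (SLC), some of which exchange one amino acid for another while others use the sodium gradient to accumulate them. SLC3A2 is a glycoprotein heavy chain that brings light chains of the SLC7 family, such as SLC7A5, to the cell surface. When amino acids run short or other stresses act on translation, the transcription factor ATF4 is known to raise the transcription of many of these carriers, and in the embryo they supply amino acids for growth.

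Gene counts totalled 48627825 to 64217529 per heart. Values per heart are given as counts per 1000000 counts (CPM), scaled with the factors of edgeR's TMM method, which lay between 0.979 and 1.04. The genotypes were compared by the quasi-likelihood test of edgeR, adjusted after Benjamini and Hochberg over all 19372 tested genes. A gene was called higher or lower at an adjusted *P* under 0.05 and a log2 fold change of at least 0.5 in size. CPM of the targeted gene *Smyd1* was 101, 222 and 206 in the *Smyd1-KO* hearts, numbered 1 to 3, against 414, 379 and 270 in WT hearts 1 to 3, lower in every *Smyd1-KO* heart but not called (log2 fold change -1.01, adjusted *P*=0.0973 by edgeR). The authors, who used DESeq2, report a significant fall of *Smyd1* in *Smyd1-KO* hearts. The counts given here cover the whole gene, and which exons the allele lacks was not used here.

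Some hearts stood apart in their cell type markers. The summed CPM of 9 cardiomyocyte markers was 6250 in *Smyd1-KO* heart 1 and 8986 in WT heart 3, and lay between 13171 and 14063 in the other 4 hearts. The summed CPM of 11 erythroid markers was 28.4 to 285 in *Smyd1-KO* and 754 to 1006 in WT hearts, with 10 of the 11 lower in every *Smyd1-KO* heart. The summed 4 neural crest markers were highest in *Smyd1-KO* heart 1, at 95.3 CPM against 18.7 to 55.7 CPM in the others. The 5 epicardial markers summed to 137 to 255 CPM in *Smyd1-KO* and 100 to 124 CPM in the WT hearts, with only 1 of the 5 higher in every *Smyd1-KO* heart. Over the 6 hearts, the 7 endothelial markers summed to 535 to 875 CPM and the 5 endoderm and liver markers to 2.30 to 69.2 CPM. Of 6 macrophage markers, 4 were under 1 CPM in every heart. *Smyd1-KO* heart 1 and WT heart 1 had 2.75 and 2.80 CPM of *Xist*, the RNA that coats the inactive X chromosome, while the other 4 hearts had 766 to 939 CPM. *Ddx3y* of the Y chromosome was at 12.4 and 44.5 CPM in the hearts low in *Xist* and at most 0.063 CPM in the other 4. The Y genes *Eif2s3y*, *Kdm5d* and *Uty* went the same way. By these genes each genotype held 1 male heart, the heart low in *Xist*. The part of these differences in the results below was not tested, and in whole hearts fewer cells of a type and less RNA per cell cannot be told apart.

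Of the 10 transporters, 4 were called higher in *Smyd1-KO* hearts (*Slc3a2*, *Slc7a5*, *Slc7a3* and *Slc1a4*), none was called lower, and 6 were not called. Among all tested genes, 2.86% were called higher and 1.42% lower. The median log2 fold change was 0.54 over the 10 transporters and -0.00 over all tested genes. At an unadjusted *P* under 0.05 by edgeR, 6 transporters were higher and 1 was lower, against 2546 and 2311 of all 19372 tested genes. DESeq2 called 5 higher and none lower, against 5.98% and 3.31% of all genes. The genotypes did not overlap in 6 of the 10 transporters, 5 of them higher and 1 lower in *Smyd1-KO* hearts, and they did not overlap in 31.3% of all tested genes. With the replicate number as a block, 0 transporters were called higher or lower, against 0.289% and 0.0155% of all genes. The numbers carry no stated pairing. With each heart left out in turn, 1 to 5 transporters were called higher. The single call was left without WT heart 2, a fit in which 0.449% of all genes were called higher and 0.0403% lower. Without *Smyd1-KO* heart 1, 5 transporters were called higher and 1 lower, against 4.04% and 2.23% of all genes. *Smyd1-KO* heart 1 was the lowest of its genotype in 6 of the 10 and the highest in *Slc3a2*, *Slc1a5* and *Slc38a1*.

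**Figure D1:**
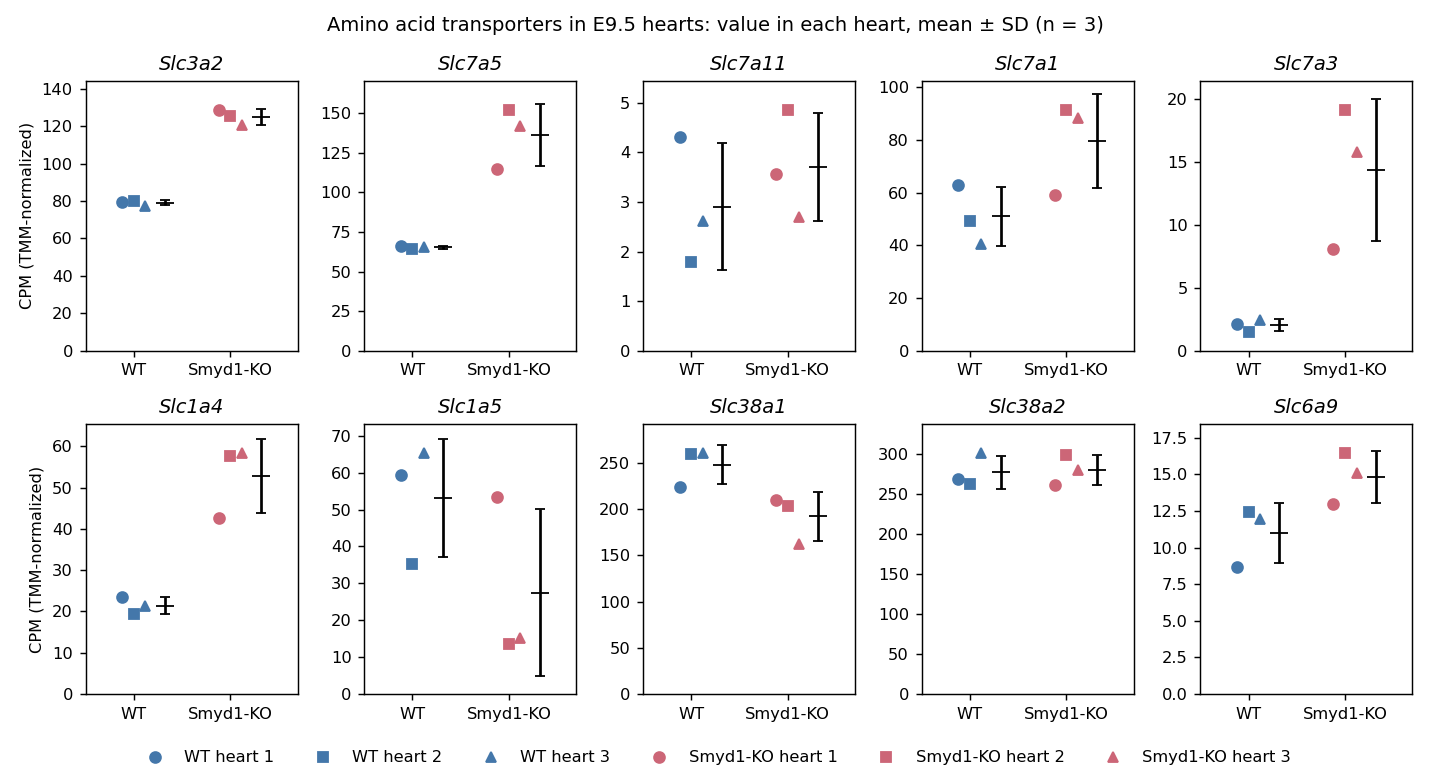
CPM of the 10 transporters in each heart, on linear axes from 0, with WT hearts in blue and *Smyd1-KO* hearts in red, a marker shape for each replicate number, and black bars for the mean ± SD (n = 3). *Slc3a2*, *Slc7a5*, *Slc7a3* and *Slc1a4* are higher in all 3 *Smyd1-KO* hearts, *Slc38a2* lies at the same height in both genotypes, and *Smyd1-KO* heart 1 is far above the other *Smyd1-KO* hearts in *Slc1a5*.

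RefSeq promoters, from 250 bases before the transcription start to 50 after it on GRCm38.p6, were at hand for 6 of the 10 transporters: *Slc7a11*, *Slc7a1*, *Slc3a2*, *Slc1a4*, *Slc38a2* and *Slc6a9*. They were searched on both strands for TGATGNAA, the core of the composite element that ATF4 binds, because the group is known for its response to this factor. Of 32817 promoters of this length, 3.97% held a match and 0.0701% held more than 1. Of the 9 promoters of these genes, 2 held it, those of *Slc7a11* and *Slc1a4*. The promoters of 3 genes are shown, all from genes on the reverse strand and read in the direction of transcription, with each match in capitals: *Slc7a11* with 2 matches (chr3:50443564-50443863), *Slc1a4* with 1 (chr11:20332664-20332963), and *Slc3a2*, a called gene without a match (chr19:8713848-8714147).
Slc7a11: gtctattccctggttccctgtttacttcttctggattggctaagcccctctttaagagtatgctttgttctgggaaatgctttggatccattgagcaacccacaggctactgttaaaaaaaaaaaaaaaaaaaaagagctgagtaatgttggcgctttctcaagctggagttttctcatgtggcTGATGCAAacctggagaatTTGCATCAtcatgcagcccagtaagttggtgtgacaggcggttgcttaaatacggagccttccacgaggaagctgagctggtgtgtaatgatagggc
Slc1a4: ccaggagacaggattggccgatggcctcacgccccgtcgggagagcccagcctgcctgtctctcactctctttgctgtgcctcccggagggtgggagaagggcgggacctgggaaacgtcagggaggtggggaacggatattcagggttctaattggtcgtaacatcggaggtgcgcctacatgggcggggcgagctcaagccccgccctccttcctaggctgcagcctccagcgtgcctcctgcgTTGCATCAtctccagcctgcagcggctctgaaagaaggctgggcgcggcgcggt
Slc3a2: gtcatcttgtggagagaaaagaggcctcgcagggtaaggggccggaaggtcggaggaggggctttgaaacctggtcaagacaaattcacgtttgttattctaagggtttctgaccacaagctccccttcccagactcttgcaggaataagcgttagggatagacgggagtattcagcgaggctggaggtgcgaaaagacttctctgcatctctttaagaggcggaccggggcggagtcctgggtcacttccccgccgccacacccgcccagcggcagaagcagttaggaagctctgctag
In *Slc7a11* the matches lie 66 to 59 bases and 47 to 40 bases before the start, the second on the opposite strand. In *Slc1a4* the match is on the opposite strand and spans the start, from 4 bases before it to 4 after. The *Slc3a2* promoter belongs to a start inside the gene's GENCODE interval and not to its 5' end. So do the *Slc7a1* promoter at chr5:148392766-148393065 and all 3 promoters of *Slc6a9*. Of the other motifs, CACGTG (the E-box, which also holds ACGTG) had no match in any of the 9 promoters of these 6 genes and is found in 7.15% of all promoters. The core TGACNNNGC of the NRF2 element had matches in 4 of the 9 promoters (*Slc7a1*, *Slc38a2* and 2 of *Slc6a9*), against 12.4% of all promoters. ACGTG or GCGTG, the core of the hypoxia response element, was found in 7 of the 9 (1 each of *Slc7a1*, *Slc3a2*, *Slc1a4* and *Slc38a2* and 3 of *Slc6a9*), against 43.8% of all promoters. The ACGTG or GCGTG matches of *Slc7a1*, *Slc3a2* and *Slc6a9* and the TGACNNNGC matches of *Slc6a9* lie in promoters of starts inside the gene. A match is a stretch of letters and not a bound site. Of the 4 called transporters, *Slc7a5* and *Slc7a3* have no promoter in the table.

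The heavy chain *Slc3a2* (ENSMUSG00000010095, chr19:8706882-8723369, reverse strand) was at 129, 126 and 121 CPM in the 3 *Smyd1-KO* hearts and at 79.7, 79.97 and 77.5 CPM in the WT hearts. Its values were nearly level within each genotype and the genotypes were far apart. *Slc3a2* rose 1.58-fold (log2 fold change 0.66, standard error 0.07, adjusted *P*=0.0051 by edgeR). Its call was kept whichever heart was left out, with the adjusted *P* by edgeR between 0.0058 and 0.0472. No other transporter of the 10 was called in every one of these fits.

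*Slc7a5* (ENSMUSG00000040010, chr8:121881150-121907694, reverse strand) encodes LAT1, the light chain that exchanges intracellular glutamine for leucine and other large neutral amino acids. It was at 115, 152 and 142 CPM in the *Smyd1-KO* hearts against 65.9, 64.4 and 65.5 CPM in the WT hearts. The WT hearts were nearly equal and the lowest *Smyd1-KO* heart, number 1, was well above them. *Slc7a5* rose 2.09-fold (log2 fold change 1.06, standard error 0.11, adjusted *P*=0.00562 by edgeR). Without WT heart 2 it missed the threshold narrowly, with an adjusted *P* of 0.0515 by edgeR, and its call was kept when any other heart was left out.

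*Slc7a11* (ENSMUSG00000027737, chr3:49892526-50443614, reverse strand) encodes xCT, the light chain that takes up cystine, the precursor of glutathione, in exchange for glutamate. It was the lowest of the 10 per length in both genotypes. *Slc7a11* was at 3.56, 4.85 and 2.70 CPM in the *Smyd1-KO* hearts (173, 287 and 154 counts), against 4.31, 1.80 and 2.61 CPM in the WT hearts (257, 114 and 174 counts). The genotypes overlapped, with WT heart 1 above 2 of the 3 *Smyd1-KO* hearts. The log2 fold change was 0.35 with a standard error of 0.36 (adjusted *P*=0.589 by edgeR), and lay between 0.10 and 0.76 with a heart left out.

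The other light chains that pair with SLC3A2 put these genes in proportion. Over *Slc7a5*, *Slc7a6*, *Slc7a7*, *Slc7a8*, *Slc7a10* and *Slc7a11*, the summed CPM per kb of exons was 50.7, 60.1 and 56.0 in *Smyd1-KO* hearts and 39.1, 39.4 and 40.2 in WT hearts. *Slc7a6*, which with SLC3A2 exchanges cationic for neutral amino acids, was at 80.2, 75.4 and 68.1 CPM in *Smyd1-KO* and 86.4, 89.2 and 92.3 CPM in the WT hearts, and was not called (log2 fold change -0.26, adjusted *P*=0.111 by edgeR). Per kb, *Slc7a5* and *Slc7a6* made up most of the sum in both genotypes. The summed light chains were 1.39, 1.69 and 1.64 times the heavy chain per kb in *Smyd1-KO* hearts and 1.73, 1.74 and 1.83 times in WT hearts. The ratio was thus lower in every *Smyd1-KO* heart, with number 1 the lowest, by 0.17 on average on the log2 scale. The exact two-sided permutation test gave *P*=0.1, the smallest that 3 hearts against 3 allow, also after adjustment over the 4 ratios tested here. How the light chains stand to the heavy chain depends on the length used. *Slc3a2* has 3529 bases of merged exons but a principal transcript of 1819 bases, while *Slc7a5* has 3708 and 3517. The size of each ratio above thus holds for merged exons only. The mean log2 difference, *Smyd1-KO* minus WT, was -0.22 with principal transcript lengths and -0.23 without gene length.

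*Slc7a1* and *Slc7a3* encode CAT1 and CAT3, carriers of arginine, lysine and ornithine that work without a heavy chain. *Slc7a3* (ENSMUSG00000031297, chrX:101079210-101086020, reverse strand) was at 8.10, 19.1 and 15.8 CPM in the *Smyd1-KO* hearts (394, 1129 and 900 counts), against 2.15, 1.48 and 2.40 CPM in the WT hearts (128, 94 and 160 counts). Every *Smyd1-KO* heart was above every WT heart, and *Smyd1-KO* heart 1, also the *Smyd1-KO* heart low in *Xist*, was the lowest of its genotype. WT heart 1, the WT heart low in *Xist*, lay between WT hearts 2 and 3. *Slc7a3* rose 7.12-fold, the largest change of the 10 (log2 fold change 2.83, standard error 0.35, adjusted *P*=0.00941 by edgeR). The fold was of this order in every fit, with a log2 fold change of 2.57 to 3.12 when a heart was left out. The call was lost without WT heart 2 (adjusted *P*=0.0618 by edgeR) and without WT heart 3 (adjusted *P*=0.0505 by edgeR).

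*Slc7a1* (ENSMUSG00000041313, chr5:148327410-148399904, reverse strand), the widely expressed carrier of this pair, was at 59.3, 91.5 and 88.3 CPM in the *Smyd1-KO* hearts against 62.9, 49.4 and 40.6 CPM in the WT hearts. *Smyd1-KO* hearts 2 and 3 were above all WT hearts, while heart 1 was below WT heart 1. The log2 fold change was 0.64 with a standard error of 0.21 (adjusted *P*=0.114 by edgeR). DESeq2 called *Slc7a1* higher with an adjusted *P* of 0.0296, and edgeR did so without *Smyd1-KO* heart 1 (log2 fold change 0.82, adjusted *P*=0.0352). Per kb, *Slc7a3* was 0.416, 0.636 and 0.544 times *Slc7a1* in *Smyd1-KO* hearts and 0.104, 0.0913 and 0.180 times in WT hearts. This ratio was higher in every *Smyd1-KO* heart, by 2.13 on the log2 scale, with the same smallest exact permutation *P* of 0.1.

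*Slc1a4* and *Slc1a5* encode ASCT1 and ASCT2, sodium-dependent exchangers of small neutral amino acids, of which ASCT1 prefers serine, alanine and cysteine and ASCT2 also carries glutamine. *Slc1a4* (ENSMUSG00000020142, chr11:20302180-20332713, reverse strand) was at 42.6, 57.7 and 58.4 CPM in the *Smyd1-KO* hearts against 23.5, 19.4 and 21.3 CPM in the WT hearts. The genotypes were clearly separate, with *Smyd1-KO* heart 1 again the lowest of its genotype. *Slc1a4* rose 2.47-fold (log2 fold change 1.30, standard error 0.15, adjusted *P*=0.00664 by edgeR). The call was kept with any heart left out but 1, and *Slc1a4* reached an adjusted *P* of 0.0522 by edgeR without WT heart 2.

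*Slc1a5* (ENSMUSG00000001918, chr7:16781340-16798274, forward strand) had the largest coefficient of variation of the 10 among *Smyd1-KO* hearts, 82.5%. It was at 53.5, 13.5 and 15.2 CPM in the *Smyd1-KO* hearts, in the order of their numbers, against 59.3, 35.1 and 65.3 CPM in the WT hearts. *Smyd1-KO* hearts 2 and 3 were below all WT hearts, while heart 1 lay inside the WT range. Over all 6 hearts *Slc1a5* was not called (log2 fold change -0.96, standard error 0.53, adjusted *P*=0.312 by edgeR). Without *Smyd1-KO* heart 1, the log2 fold change was -1.89 and *Slc1a5* was called lower (adjusted *P*=0.0116 by edgeR). *Smyd1-KO* heart 1 is the heart with the fewest cardiomyocyte and erythroid and the most neural crest marker counts, and the part of these in its *Slc1a5* level was not tested.

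The exchangers were then compared within each heart. Per kb, *Slc1a4* was 0.845, 4.53 and 4.09 times *Slc1a5* in *Smyd1-KO* hearts and 0.422, 0.586 and 0.347 times in WT hearts. In all WT hearts *Slc1a5* was the higher of the pair, and in *Smyd1-KO* hearts 2 and 3 *Slc1a4* was. The ratio was higher in *Smyd1-KO* hearts by 2.50 on the log2 scale, with no overlap and the smallest exact permutation *P* of 0.1.

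**Figure D2:**
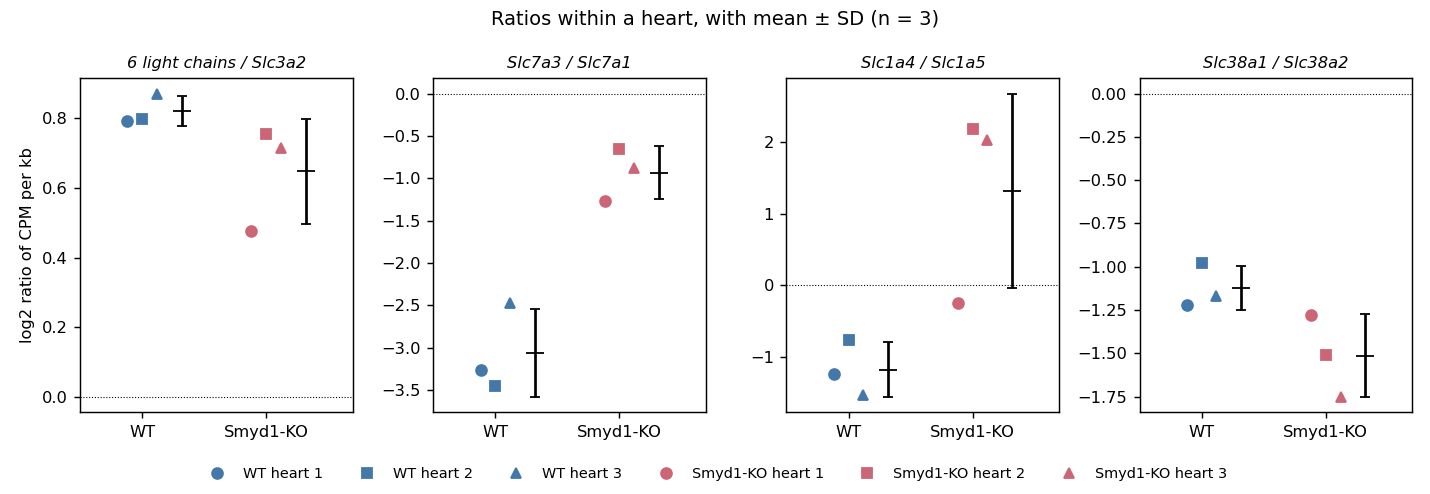
Ratios of CPM per kb within each heart on the log2 scale, for the summed light chains over *Slc3a2*, *Slc7a3* over *Slc7a1*, *Slc1a4* over *Slc1a5* and *Slc38a1* over *Slc38a2*, with black bars for the mean ± SD (n = 3) and a dotted line where both genes are level. The genotypes do not overlap in any of the 4 ratios, and the gap is 2.13 for *Slc7a3* over *Slc7a1* but 0.17 for the light chains over *Slc3a2*.

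*Slc38a1* and *Slc38a2* encode SNAT1 and SNAT2, sodium-coupled carriers that accumulate glutamine, alanine and other neutral amino acids, and they are neighbours on chromosome 15. *Slc38a2* (ENSMUSG00000022462, chr15:96687392-96699730, reverse strand) was at 262, 298 and 280 CPM in the *Smyd1-KO* hearts against 268, 262 and 301 CPM in the WT hearts. The genotypes overlapped almost fully and the log2 fold change was 0.01 with a standard error of 0.09 (adjusted *P*=0.942 by edgeR). *Slc38a1* (ENSMUSG00000023169, chr15:96571418-96642913, reverse strand) was at 210, 204 and 162 CPM in the *Smyd1-KO* hearts against 224, 260 and 261 CPM in the WT hearts. Every *Smyd1-KO* heart was below every WT heart, but the log2 fold change of -0.37 (standard error 0.12) was not called (adjusted *P*=0.122 by edgeR). Per kb, *Slc38a1* was 0.412, 0.351 and 0.297 times *Slc38a2* in *Smyd1-KO* hearts and 0.429, 0.508 and 0.444 times in WT hearts. The ratio was lower in *Smyd1-KO* hearts by 0.39 on the log2 scale, with the smallest exact permutation *P* of 0.1.

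*Slc6a9* (ENSMUSG00000028542, chr4:117834506-117875198, forward strand) encodes GLYT1, a glycine carrier coupled to sodium and chloride that is known from brain and from red cell precursors, which need glycine for heme. It was at 12.96, 16.5 and 15.1 CPM in the *Smyd1-KO* hearts against 8.64, 12.4 and 11.95 CPM in the WT hearts. The genotypes did not overlap, although *Smyd1-KO* heart 1 was close to WT heart 2. The log2 fold change was 0.43 with a standard error of 0.18, and *Slc6a9* was not called (adjusted *P*=0.185 by edgeR). Its exons share 1429 bases with *Ccdc24*, which had at most 30 counts in a heart, and 46 bases with *B4galt2*, which had up to 4517, both on the opposite strand, and 511 bases with *Gm17114*, which had no counts. The strand setting of the counting is not given in the sources used here, so reads in these stretches may come from either gene. None of the other 9 transporters shares exonic bases with another gene in this annotation.

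**Figure D3:**
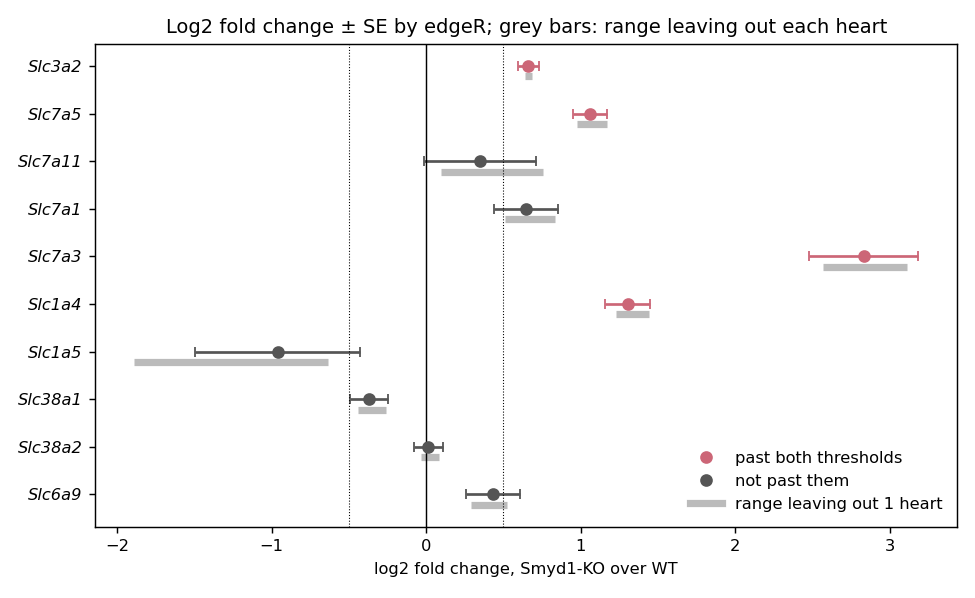
Log2 fold change of *Smyd1-KO* over WT hearts by edgeR for each transporter, with its standard error, in red where it passed both thresholds, and grey bars for the range of the estimate when each heart was left out. Dotted lines stand at log2 fold changes of -0.5 and 0.5. *Slc7a3* lies farthest to the right at 2.83, and the grey bar of *Slc1a5* is the longest, from -1.89 to -0.63.

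The order of the levels per length also differed between the genotypes. In WT hearts, mean CPM per kb of merged exons ran from *Slc38a2* (31.3) through *Slc3a2* (22.4), *Slc7a5* (17.6), *Slc38a1* (14.4), *Slc1a5* (12.8), *Slc1a4* (5.45), *Slc7a1* (4.42), *Slc6a9* (2.14) and *Slc7a3* (0.531) to *Slc7a11* (0.209). Among neighbours in this order, the ranges over hearts overlapped for *Slc38a1* and *Slc1a5* and for *Slc1a4* and *Slc7a1*, and no others did. In *Smyd1-KO* hearts the order was *Slc7a5* (36.7), *Slc3a2* (35.4), *Slc38a2* (31.7), *Slc1a4* (13.5), *Slc38a1* (11.1), *Slc7a1* (6.91), *Slc1a5* (6.57), *Slc7a3* (3.78), *Slc6a9* (2.89) and *Slc7a11* (0.266). Here only *Slc3a2* and *Slc38a2*, *Slc38a2* and *Slc1a4*, *Slc38a1* and *Slc7a1*, and *Slc6a9* and *Slc7a11* were neighbours without overlap. With the length of the principal transcript in place of merged exons, *Slc38a1* and *Slc1a5* stood above *Slc7a5* in WT hearts, and *Slc3a2* (68.7) and *Slc38a2* (60.03) led in *Smyd1-KO* hearts ahead of *Slc7a5* (38.7). The place of *Slc7a5* among the highest levels thus depends on the length used, while its change between genotypes does not.

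**Figure D4:**
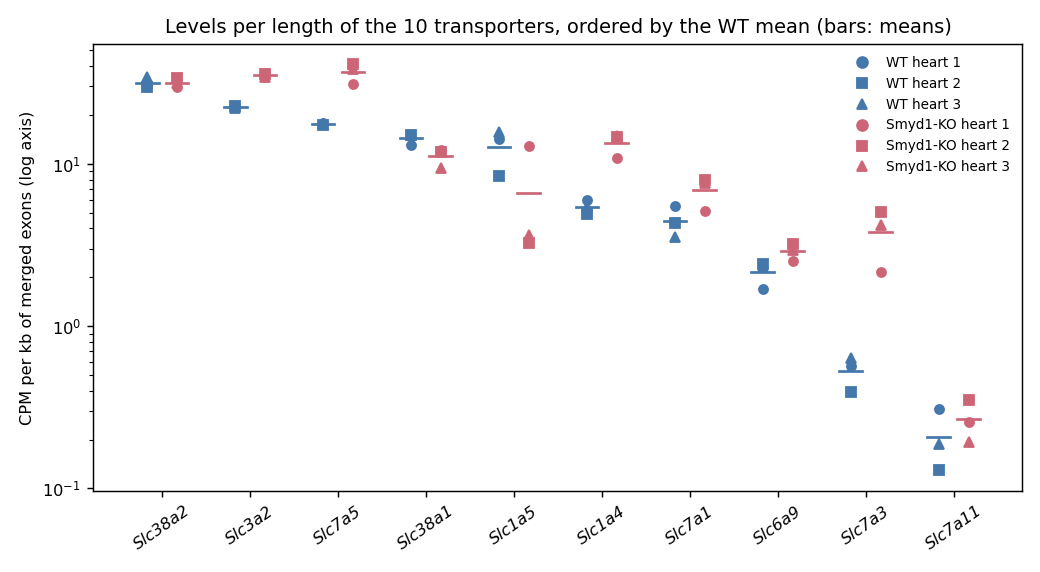
CPM per kb of merged exons of the 10 transporters in each heart, on a log axis and ordered by the WT mean, with blue for WT and red for *Smyd1-KO* hearts, a marker shape for each replicate number and short bars for the means. *Slc7a3* moves from 0.531 in WT to 3.78 CPM per kb in *Smyd1-KO* hearts, from below to beside *Slc6a9*, and *Slc38a2* is level at 31.3 and 31.7.

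Summed over the 10 transporters, CPM per kb was 143, 157 and 147 in *Smyd1-KO* hearts and 112, 105 and 117 in WT hearts, without overlap. *Slc7a5* made up 24.6% of this sum on average in *Smyd1-KO* hearts and 15.8% in WT hearts. *Slc38a2*, the largest part in WT hearts at 28.1%, made up 21.3% in *Smyd1-KO* hearts, with a log2 fold change of 0.01 in its own level. The share of *Slc1a5* was 4.51% against 11.4% and varied from 2.07% to 8.98% among *Smyd1-KO* hearts. All these shares use merged exon lengths and, like the order of levels, depend on the length used.

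The remaining amino acid carriers of the same families were counted in the same way. Of 36 such carriers in the table, 24 were tested, with a median log2 fold change of 0.04. Of the 24, 1 was called higher and 1 lower, against 2.86% and 1.42% of all tested genes. *Slc38a3*, which encodes the glutamine carrier SNAT3, was at 12.6, 19.3 and 14.0 CPM in the *Smyd1-KO* hearts against 1.38, 2.17 and 2.37 CPM in the WT hearts. It rose 7.74-fold (log2 fold change 2.95, standard error 0.27, adjusted *P*=0.00332 by edgeR) and was called whichever heart was left out. *Slc38a5*, which encodes SNAT5, fell from 2.38, 3.18 and 2.78 CPM in the WT hearts to 0.514, 1.116 and 0.596 CPM in *Smyd1-KO* hearts (log2 fold change -1.90, standard error 0.33, adjusted *P*=0.0243 by edgeR). Its fall went with that of the erythroid markers, whose part was not tested, and the call was kept in 2 of 6 fits, those without *Smyd1-KO* heart 1 and without heart 2. Other carriers at high CPM were not called, such as *Slc38a4* (log2 fold change 0.11) and *Slc38a10* (0.11). DESeq2 called 4 of these carriers higher and 2 lower, against 5.98% and 3.31% of all genes. It added *Slc7a2*, *Slc1a6* and *Slc6a15* as higher and *Slc16a10* as lower. The adjusted *P* of these added genes by edgeR lay between 0.0522 for *Slc16a10* and 0.0754 for *Slc6a15*.

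**Figure D5:**
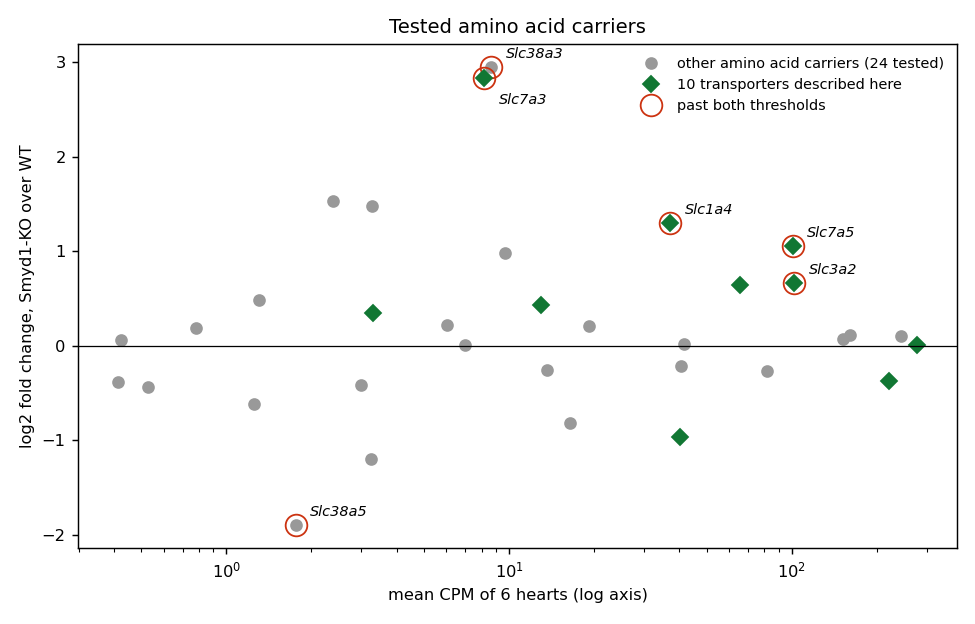
Log2 fold change of *Smyd1-KO* over WT hearts against the mean CPM of the 6 hearts (log axis), with green diamonds for the 10 transporters, grey points for the 24 other tested amino acid carriers and red rings around those past both thresholds. *Slc38a3* and *Slc7a3* lie together at the top, at 2.95 and 2.83, and *Slc38a5* is the lowest point at -1.90.

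Genes of the response to amino acid shortage, several of them known targets of ATF4, were set beside the transporters. Of 13 such genes, 8 were called higher and none lower by edgeR, against 2.86% and 1.42% of all tested genes. None was lower at an unadjusted *P* under 0.05 by edgeR or called lower by DESeq2, and the median log2 fold change was 1.19. *Atf4* itself was at 171, 220 and 181 CPM in *Smyd1-KO* and 140, 123 and 118 CPM in the WT hearts (log2 fold change 0.59, adjusted *P*=0.0389 by edgeR). With a heart left out, *Atf4*, *Ddit3* and *Cebpb* were each called only without *Smyd1-KO* heart 1, and the adjusted *P* of *Atf4* by edgeR ran up to 0.165. *Asns*, which encodes asparagine synthetase, rose by a log2 fold change of 0.98 (adjusted *P*=0.012 by edgeR). *Trib3* (3.62), *Chac1* (4.26), *Ddit4* (2.99), *Sesn2* (1.42), *Cebpb* (1.48) and *Ddit3* (1.19) rose as well, in log2 fold change. The sensor kinase gene *Eif2ak4* was not called (0.15). Among the *Smyd1-KO* hearts, heart 1 was the lowest in all of the 13 genes but *Cebpg*, *Ddit4* and *Eif2ak4*. In *Trib3* and *Chac1* it was at 11.4 and 7.51 CPM against 29.8 or more and 17.1 or more in the others. It was also the lowest of its genotype in *Slc7a3*, *Slc7a5* and *Slc1a4*. The same heart was the highest of its genotype in *Ddit4* (607 against 540 and 518 CPM), in *Eif2ak4* (48.2 against 40.5 and 35.3 CPM) and in *Slc3a2*. With a heart left out, 2 to 9 of the 13 were called higher. The 9 were called without *Smyd1-KO* heart 1 and the 2 (*Chac1* and *Ddit4*) without WT heart 2, against 4.04% and 0.449% of all genes. DESeq2 called 9 higher, adding *Atf5*, against 5.98% of all genes.

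Of 8 other regulators of these carriers, edgeR called 1 higher and 1 lower, against 2.86% and 1.42% of all tested genes. DESeq2 called 2 higher and 1 lower, against 5.98% and 3.31%. It added *Epas1*, which encodes HIF-2 alpha (log2 fold change 0.98, adjusted *P* 0.0369 by DESeq2 and 0.174 by edgeR). *Hif1a*, which encodes the oxygen-regulated subunit of HIF-1, fell (log2 fold change -0.59, adjusted *P*=0.0123 by edgeR), with the call lost without WT heart 2 or WT heart 3 (highest adjusted *P* by edgeR 0.0795). *Myc*, whose product is known to raise *Slc7a5* and *Slc1a5*, rose by 0.51 (adjusted *P*=0.0428 by edgeR), but was called in 0 of 6 fits with a heart left out, where the adjusted *P* by edgeR ran from 0.0517 to 0.173. *Nfe2l2*, which encodes NRF2, was not called (0.05), nor was *Nedd4* (0.17), the ubiquitin ligase gene at the highest CPM of the list.

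Enzymes of amino acid metabolism, glutathione and antioxidant defence were taken as 5 lists of 34 tested genes in all. By edgeR 4 of the 34 were called higher and 3 lower, against 2.86% and 1.42% of all tested genes, and by DESeq2 6 were called higher and 3 lower, against 5.98% and 3.31%. Of 9 genes of glutathione and antioxidant defence, *Hmox1*, which encodes heme oxygenase 1, rose (log2 fold change 1.27, adjusted *P*=0.00668 by edgeR) and *Txnrd1*, which encodes thioredoxin reductase, fell (-0.64, adjusted *P*=0.0332 by edgeR). With a heart left out, *Txnrd1* kept its call only without *Smyd1-KO* heart 1, and *Hmox1* lost its call only without WT heart 2. Of 8 genes of glutamine and glutamate, *Gpt2*, an alanine transaminase gene, rose (1.39, adjusted *P*=0.00378 by edgeR) and was the only call by edgeR over the 6 hearts, while DESeq2 also called *Gls2*, a glutaminase gene, higher (adjusted *P* 0.00081 by DESeq2 and 0.0528 by edgeR). Of 6 genes of arginine, *Asl*, which encodes argininosuccinate lyase, rose (0.63, adjusted *P*=0.0138 by edgeR) and *Nos3*, the endothelial nitric oxide synthase gene, fell (-0.85, adjusted *P*=0.0252 by edgeR), with the calls kept in 3 and 2 of 6 fits that left out a heart. *Asl* lost its call without *Smyd1-KO* heart 2, WT heart 2 or WT heart 3, and *Nos3* kept its call only without *Smyd1-KO* heart 1 and without WT heart 3. Of 7 genes of serine and glycine, *Shmt2*, the mitochondrial serine hydroxymethyltransferase gene, rose (0.99, adjusted *P*=0.00365 by edgeR), and *Amt*, of the glycine cleavage system, fell (-0.53, adjusted *P*=0.0322 by edgeR), a call that with a heart left out was kept only without *Smyd1-KO* heart 1. Of 4 genes of leucine breakdown none was called by edgeR or DESeq2. By edgeR, 1 was higher at an unadjusted *P* under 0.05, as were 2546 of all 19372 tested genes.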

How the data were processed

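Libraries of poly A RNA were sequenced from both ends, and the authors mapped the reads on mm10 using STAR. The deposited table used here holds raw counts per gene, made by the authors without normalization. The counting tool, annotation release and strand setting are not given in the sources used here. A table of counts divided by size factors was not used.

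Genotype and replicate number came from the sample labels. The genotypes were compared by edgeR 4.0.16 under R 4.3.3 (filterByExpr, TMM, quasi-likelihood test, Benjamini-Hochberg adjustment over 19372 genes), and the script was tested on simulated data. Positions and merged exon lengths came from GENCODE on GRCm38, in which 54495 of 54532 genes were found, and promoters from RefSeq. CPM per kb divides CPM by merged exon length. Ratios were compared by exact two-sided permutation tests over hearts.

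Alternatives were DESeq2 1.42.0, RLE or upper-quartile scaling, no filter or at least 10 counts in every heart, no limit on the fold change, leaving out mitochondrial and haemoglobin genes, the replicate number as a block, leaving out each heart and, for ratios, no gene length. The principal transcript's length was added after seeing the data. The transporters and gene lists were chosen with earlier results of these data known. All 10 transporters, every called gene of the other lists, and up to 2 uncalled genes per list with the highest CPM or a needed role are named, and the listed genes that DESeq2 alone called were named after their values were seen. Python 3.11.15, pandas 2.3.3, scipy 1.17.1 and matplotlib 3.10.9 made the tables and plots. The 3 hearts of a genotype are separate embryos, and the replicate numbers carry no stated pairing.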

Additional observations from a re-analysis of the deposited data

How the results depend on the processing

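The number of transporters called higher, 4 by edgeR, was 5 with DESeq2 and 1 to 5 with a heart left out, and the number called lower was 0 to 1 with a heart left out. Both were the same as in the report with RLE or upper-quartile scaling, either other filter on low counts, no limit on the fold change, and without mitochondrial and haemoglobin genes. The 36 other carriers, with 1 called higher and 1 lower, gave 4 and 2 with DESeq2, 4 and 2 without a filter, 2 and 2 with at least 10 counts in every heart, and 1 to 1 and 0 to 2 with a heart left out. Over all tested genes, 555 were higher and 275 lower, against 1126 and 623 with DESeq2 and 89 to 809 and 8 to 447 with a heart left out. The cause of the difference between tools was not tested. *Slc38a2* changed sign without *Smyd1-KO* heart 2 (-0.031), WT heart 1 (-0.00079) and WT heart 2 (-0.024), ranged from -0.031 to 0.081 with a heart left out, and was called in no fit. With a heart left out, the 4 ratios ranged from -0.23 to -0.09 for the light chains, 1.94 to 2.43 for *Slc7a3* over *Slc7a1*, 2.07 to 3.29 for *Slc1a4* over *Slc1a5* and -0.51 to -0.27 for *Slc38a1* over *Slc38a2*, where the exact permutation test cannot go below 0.2.

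No pairing by replicate number is stated. The deviations of same-numbered hearts correlated at -0.22 to -0.05 and those of other numbers at -0.16 to 0.29. The means were -0.15 and 0.07. With so few hearts and overlapping ranges, these correlations cannot decide whether the numbers pair the hearts. With the number as a replicate block, 0 transporters were called higher or lower, 1 and 0 other carriers, and 56 and 3 of all genes. The adjusted *P* by edgeR was then 0.0617 for *Slc7a5*, 0.0733 for *Slc3a2*, 0.0794 for *Slc1a4* and 0.0859 for *Slc7a3*. The block leaves the ratio differences as they are by construction (-0.17, 2.13, 2.50 and -0.39, in the order above), and gave an exact sign-flip *P* of 0.25, the smallest 3 pairs allow. Leaving out gene length likewise cannot move the ratios of single genes, and gave -0.23 for the light chains, against -0.22 with principal transcript lengths.

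With 3 hearts a genotype and a biological coefficient of variation of 22.5%, adjusted *P* near the threshold moves with single hearts. *Slc7a11*, at 114 to 287 counts in a heart, has the lowest levels per length.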

Other observations

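Amino acid carriers of the lysosome, which return amino acids from protein breakdown to the cytosol, were measured as a group apart from those of the plasma membrane. Of 7 in the table, 6 were tested and none was called in either direction by edgeR or by DESeq2. By edgeR, 1 was higher at an unadjusted *P* under 0.05, as were 2546 of all 19372 tested genes. The log2 fold changes of the 6 lay between -0.19 and 0.24 with a median of 0.05. *Slc38a7*, a lysosomal glutamine carrier gene, was at 35.6, 33.5 and 36.4 CPM in the *Smyd1-KO* hearts against 30.2, 31.7 and 28.4 CPM in the WT hearts, higher in every *Smyd1-KO* heart without a call (log2 fold change 0.23, adjusted *P*=0.162 by edgeR). *Slc15a4*, a carrier of histidine and small peptides, was at 24.3, 25.9 and 26.4 CPM in the *Smyd1-KO* hearts against 24.1, 23.7 and 23.95 CPM in the WT hearts (log2 fold change 0.10, adjusted *P*=0.524 by edgeR).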
